A study of Arabidopsis thaliana with 38 samples.

Results

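A set of 4 genes of the *Arabidopsis thaliana* response to iron shortage was followed through every line of a study of plants with reduced HSP90, a chaperone that helps unstable signalling proteins to mature. They were *BHLH101* (AT5G04150, probe set 245692_at), *bHLH39* (AT3G56980, 251677_at), AT1G47400 (261684_at) and *IRT1* (AT4G19690, 254550_at), 4 of 22746 probe sets on the array. They were picked by name from earlier results of these same arrays, so the changes of the HSP90-reduced lines against their controls are given as a description, with no p. How many of the genes the fit called stands only beside the share of all probe sets called. The probe table names 2 of the 4 genes. The names of *bHLH39* and *IRT1* come from the selection itself, since that table does not list their probe sets.

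Plants short of iron switch on a cascade of basic helix-loop-helix (bHLH) transcription factors. *BHLH101* and *bHLH39* belong to its subgroup Ib, whose transcripts rise steeply in roots and leaves when iron runs low and whose proteins pair with the root factor FIT. *IRT1* encodes the iron-regulated transporter that carries ferrous iron into root epidermal cells, and is a target of those pairs. The gene table used here gives AT1G47400 no name or role.

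The samples were 35 pools of seedlings from 13 lines of the Col-0 accession, aged 14 days, on 38 ATH-1 arrays, with RNA from the aerial parts. All plants were raised in long days on GM medium, so iron supply was not varied between lines. Signals are linear MAS5 values, and means ± SD are in these units. The lines were spread over 3 experiments.

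The first experiment held Control-2 beside RNAi-A1 and RNAi-A3, with 2 samples each, and the second sample of each line was put on 2 arrays. The second held RNAi-A2 (2 samples), RNAi-B1 and RNAi-C1 (3 samples each), and as controls Control-3 and Control-1 (3 samples each). The last held Col-0 and insertion lines for single genes, named HSP90.3-TDNA, HSP90.2-TDNA and HSP90.1-TDNA, with 3 samples each. The mutant *hsp90.2-3* (3 samples) has no named experiment and was set against Col-0. An effect of the mutation and one of the experiment cannot be told apart in that comparison. The RNAi lines carry a hairpin driven by the 35S promoter, made from one fragment of *HSP90.1* (RNAi-A), another fragment of *HSP90.1* (RNAi-B) or a fragment of *HSP90.2* (RNAi-C). The numbered control lines carry the same vector, with its GFP spacer, and no HSP90 sequence. The RNAi and numbered control lines were made in a laboratory stock of Col-0, whereas the labels give the Col-0 samples a stock number. Each transgenic line descends from a single transformant. The TDNA lines are homozygous for an insertion in 1 cytosolic HSP90 gene, and *hsp90.2-3* bears a point mutation in the ATP-binding domain of HSP90.2. Western blots of the study found less HSP90 protein in the RNAi lines and the other TDNA lines, but not in HSP90.1-TDNA. They gave no value for *hsp90.2-3*. Both HSP90.1-TDNA and *hsp90.2-3* are still counted here among the HSP90-reduced lines.

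One array of RNAi-A3 replicate 2 stood apart: its correlation with the median profile was 0.4995, against 0.976 to 0.988 for the others, and its median signal was 339, against 171 to 221. It was left out, and that sample is represented by its second array. The labels call the samples of a line biological replicates and mark repeat arrays of a sample as technical. They do not say whether the pools were grown separately, so SDs and p-values measure the spread between these pools. The number of arrays limits the precision, and the first experiment, with 2 samples a line, is the least precise.

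*BHLH101*, *bHLH39* and AT1G47400 each had their lowest mean in an HSP90-reduced line and their highest in Control-3, and the point mutant *hsp90.2-3* had the lowest mean of *bHLH39* and AT1G47400 among the 13 lines. In *hsp90.2-3* the mean signal of AT1G47400 was 176, against 960 in Col-0. That of *BHLH101* was 20.2 against 148 and that of *bHLH39* 46.0 against 103, and for both genes every *hsp90.2-3* sample was under 90.27, the signal a line mean had to pass for testing. In the line HSP90.1-TDNA no gene of the 3 lay wholly below Col-0. *IRT1* stayed at a dim signal in every line. In pooled tissue, fewer cells of a type and less RNA per cell cannot be told apart.

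**Figure D1:**
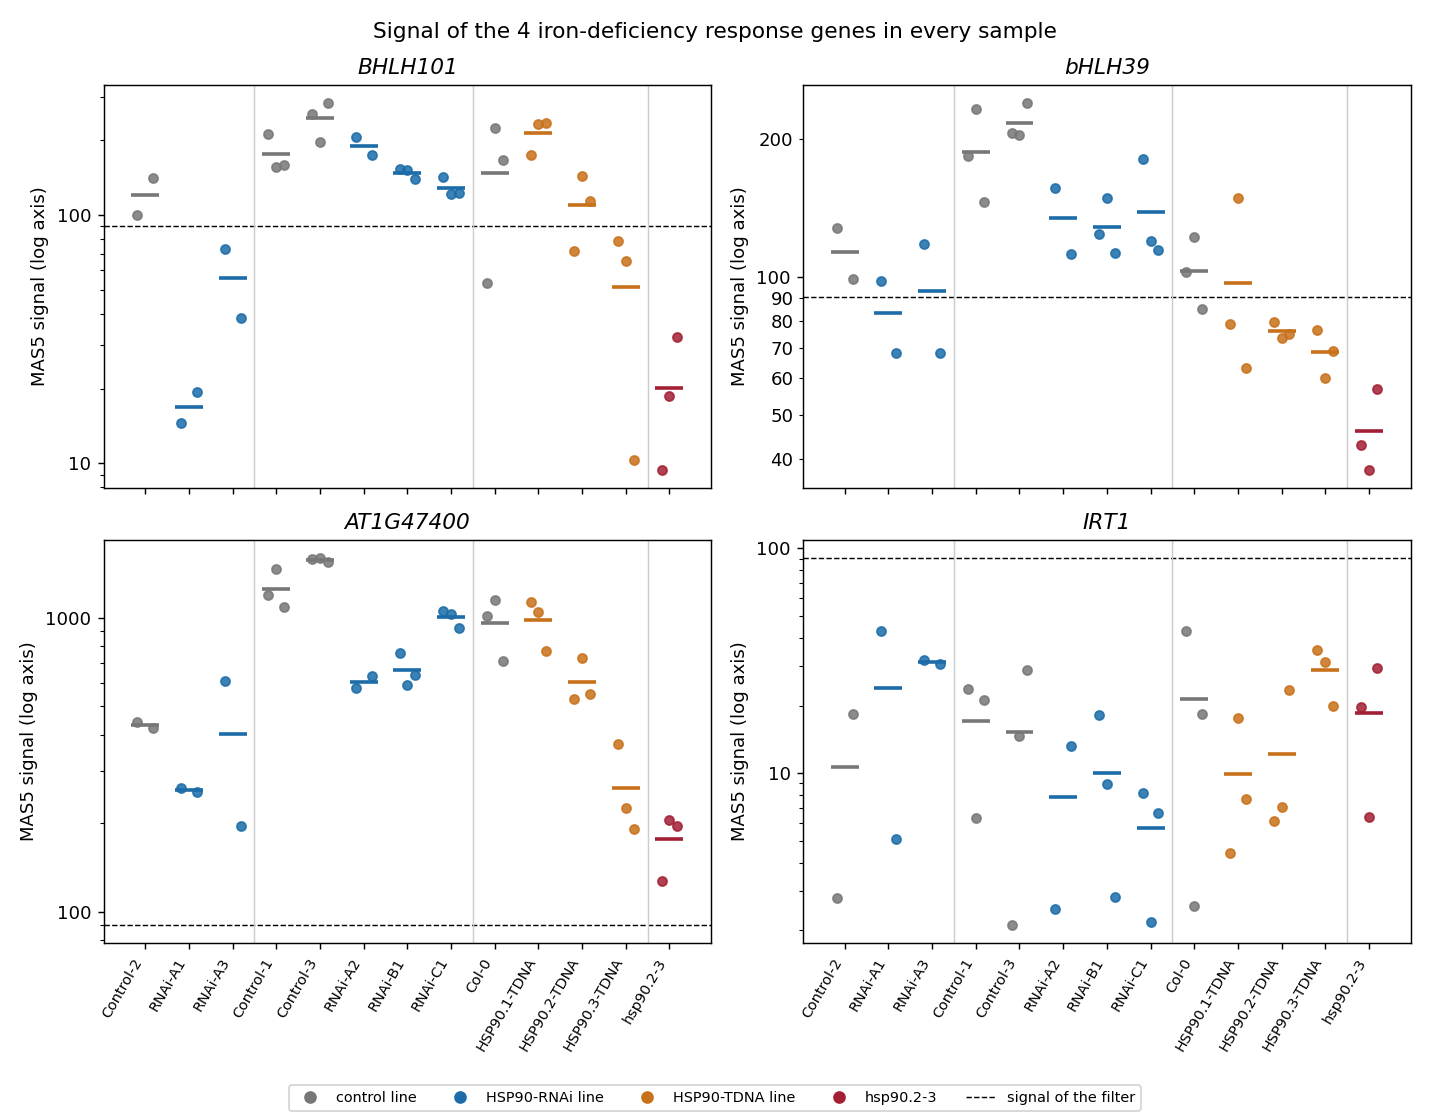
MAS5 signal (log axis) of the 4 genes in each of 35 samples, by line. Points are samples, horizontal bars are line means, grey vertical lines separate the experiments and *hsp90.2-3*, and the dashed line is the signal of 90.27 used as a filter. The 3 *hsp90.2-3* samples lie below all Col-0 samples for *BHLH101*, *bHLH39* and AT1G47400, and all *IRT1* points lie below the dashed line.

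*BHLH101*, a subgroup Ib factor, had the widest spread within lines of the 3 genes that passed the filter. In the first experiment its signal was 99.6 and 141 in Control-2, 14.5 and 19.4 in RNAi-A1, and 73.0 and 38.7 in RNAi-A3. Both lines lay wholly below their control, and RNAi-A1 had the lowest mean of the 13 lines, 16.9 ± 3.42 (SD, n = 2). On the log2(signal + 16) scale used for all changes here, which understates the change of dim genes, *BHLH101* differed from Control-2 by -2.04 (SE 0.47) in RNAi-A1 and by -0.95 (SE 0.47) in RNAi-A3.

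In the second experiment *BHLH101* read 212, 156 and 159 in Control-1 and 256, 197 and 282 in Control-3. RNAi-A2 gave 206 and 175, RNAi-B1 gave 154, 152 and 139, and RNAi-C1 gave 142, 122 and 123. RNAi-A2 lay within the control range, whereas each RNAi-B1 and RNAi-C1 sample was below each control sample. The log2 changes were -0.11 (SE 0.38) in RNAi-A2, where the sign turned with Control-1 alone as the control (0.12), -0.43 (SE 0.33) in RNAi-B1 and -0.62 (SE 0.33) in RNAi-C1.

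*BHLH101* varied between the insertion lines. Col-0 gave 53.4, 224 and 166, HSP90.1-TDNA 174, 232 and 235, HSP90.2-TDNA 71.5, 143 and 114, and HSP90.3-TDNA 79.0, 65.4 and 10.3. In *hsp90.2-3* the values were 9.45, 18.8 and 32.4, all below the lowest Col-0 sample. HSP90.1-TDNA and HSP90.2-TDNA overlapped Col-0, and so did HSP90.3-TDNA because of Col-0 replicate 1.

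That Col-0 sample weighs on each of these comparisons. The log2 change of *BHLH101* was 0.65 (SE 0.38) in HSP90.1-TDNA, -0.25 (SE 0.38) in HSP90.2-TDNA, -1.30 (SE 0.38) in HSP90.3-TDNA and -2.05 (SE 0.38) in *hsp90.2-3*. Without Col-0 replicate 1 the same values were 0.12, -0.78, -1.83 and -2.58. Without Col-0 replicate 2 the change in HSP90.2-TDNA was 0.12, so its sign rests on single control samples. Without replicate 3 of HSP90.3-TDNA, the change in that line was -0.72.

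*bHLH39*, the other subgroup Ib factor, moved less. In the first experiment Control-2 gave 128 and 99.1, RNAi-A1 98.1 and 68.3, and RNAi-A3 118 and 68.2. RNAi-A1 fell just below its control, and RNAi-A3 overlapped it. The log2 differences were -0.39 (SE 0.28) and -0.28 (SE 0.28), and the latter was 0.06 without RNAi-A3 replicate 2.

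In the second experiment *bHLH39* gave 184, 232 and 146 in Control-1 and 206, 204 and 239 in Control-3. RNAi-A2 gave 157 and 112, RNAi-B1 124, 149 and 113, and RNAi-C1 181, 120 and 114. Each of the 3 lines had a lower mean than both controls, and in each the highest sample exceeded the lowest sample of Control-1. Log2 differences were alike, -0.53 (SE 0.22) in RNAi-A2, -0.58 (SE 0.19) in RNAi-B1 and -0.51 (SE 0.19) in RNAi-C1.

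For *bHLH39* in the insertion lines, Col-0 gave 102, 122 and 84.98, HSP90.1-TDNA 78.8, 148 and 63.3, HSP90.2-TDNA 79.5, 73.4 and 75.1, and HSP90.3-TDNA 76.6, 60.02 and 68.9. The *hsp90.2-3* samples gave 43.0, 38.0 and 57.0. The latter 2 insertion lines and *hsp90.2-3* lay wholly below Col-0, while HSP90.1-TDNA held both the highest and a low sample. Differences were -0.14 (SE 0.22), -0.36 (SE 0.22) and -0.49 (SE 0.22) in the TDNA lines in order of gene number, and -0.94 (SE 0.22) in *hsp90.2-3*.

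AT1G47400 was the brightest of the 4 probe sets, above the filter signal of 90.27 in all 35 samples. Control-2 gave 442 and 422, RNAi-A1 263 and 255, and RNAi-A3 611 and 195. RNAi-A1 was below its control, but the RNAi-A3 samples fell on either side of it. The log2 change was -0.70 (SE 0.33) in RNAi-A1 and -0.30 (SE 0.33) in RNAi-A3, and the latter ranged from -1.08 to 0.49 as each sample was left out.

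In the second experiment AT1G47400 gave 1193, 1460.2 and 1089.8 in Control-1 and 1580.1, 1591 and 1550.3 in Control-3. RNAi-A2 gave 576 and 633, RNAi-B1 756, 591 and 639, and RNAi-C1 1052, 1033 and 923. All 8 RNAi samples were below all 6 control samples, with RNAi-C1 nearest to them. The log2 changes were -1.19 (SE 0.27) in RNAi-A2, -1.07 (SE 0.23) in RNAi-B1 and -0.47 (SE 0.23) in RNAi-C1.

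Col-0 gave 1012, 1153 and 715 for AT1G47400, HSP90.1-TDNA 1134, 1049 and 773, HSP90.2-TDNA 530.4, 729.9 and 551, and HSP90.3-TDNA 373, 224 and 191. The *hsp90.2-3* samples gave 128, 206 and 195. HSP90.1-TDNA lay within the Col-0 range, HSP90.2-TDNA just overlapped it, and HSP90.3-TDNA and *hsp90.2-3* were far below. Log2 changes were 0.05 (SE 0.27), -0.64 (SE 0.27) and -1.83 (SE 0.27) in the TDNA lines by gene number, and -2.34 (SE 0.27) in *hsp90.2-3*, which is 5.08-fold lower on that scale.

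*IRT1*, the root uptake transporter, ranged from 2.12 to 43.1 over the 35 samples. No sample reached the filter signal of 90.27, so it was not tested and no fold is given. Line means ran from 5.68 ± 3.13 (SD, n = 3) in RNAi-C1 to 31.1 ± 0.932 (SD, n = 2) in RNAi-A3, and each line overlapped its neighbour in that order. Signals of the 24 samples of HSP90-reduced lines (median 11.1) and the 11 control samples (median 18.3) overlapped throughout.

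**Figure D2:**
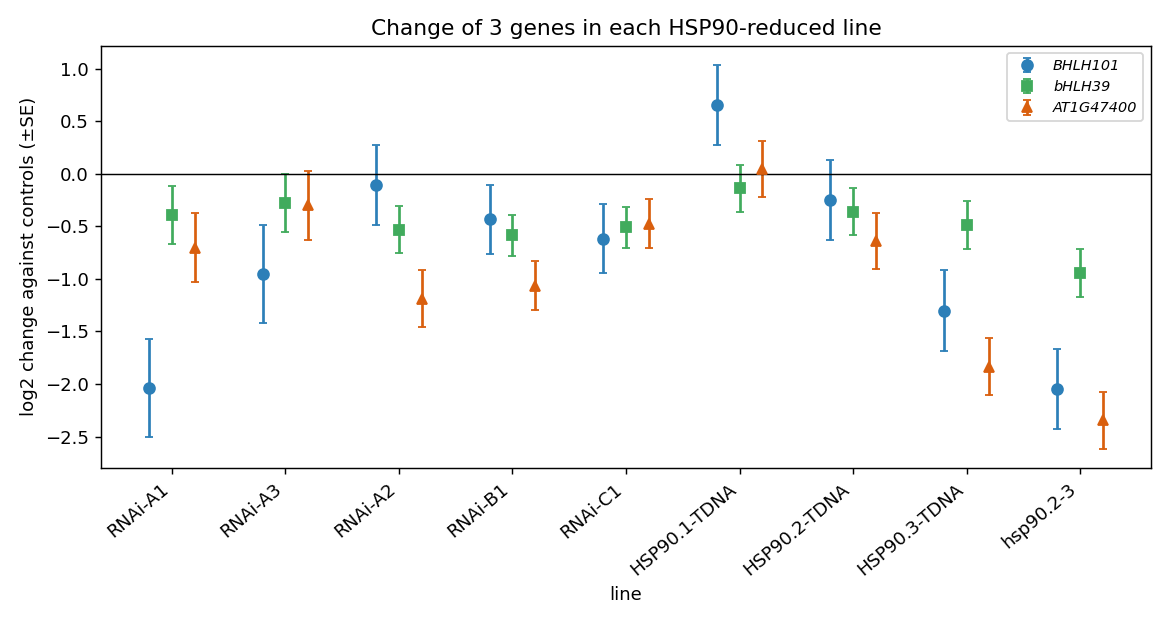
Log2 change (log2(signal + 16), ± SE) of *BHLH101*, *bHLH39* and AT1G47400 in each HSP90-reduced line against the controls of its experiment. Col-0 stands as the control of *hsp90.2-3*, which has no named experiment. The largest falls of AT1G47400 and *bHLH39* were in *hsp90.2-3* (-2.34 and -0.94), and *BHLH101* in HSP90.1-TDNA (0.65) is the only point more than 1 SE above 0.

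The order of the line means shows how far apart the controls themselves were. From lowest to highest control line, AT1G47400 differed 3.64-fold, *bHLH39* 2.1-fold and *BHLH101* 2.03-fold. AT1G47400 was highest in Control-3, 1574 ± 21.0 (SD, n = 3), followed by Control-1, RNAi-C1, HSP90.1-TDNA and Col-0. It was lower in Control-2, 432 ± 14.2 (SD, n = 2), than in RNAi-B1, RNAi-A2 or HSP90.2-TDNA. The lowest line, *hsp90.2-3* at 176 ± 42.3 (SD, n = 3), did not overlap the next, RNAi-A1.

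*bHLH39* ran from 217 ± 19.7 (SD, n = 3) in Control-3 to 46.0 ± 9.87 (SD, n = 3) in *hsp90.2-3*. Of 12 steps between neighbours in that order, only the last, between HSP90.3-TDNA and *hsp90.2-3*, was free of overlap. *BHLH101* began with Control-3 at 245 ± 43.3 (SD, n = 3) and HSP90.1-TDNA at 213 ± 34.3 (SD, n = 3), and ended with *hsp90.2-3* at 20.2 ± 11.5 (SD, n = 3) and RNAi-A1, whose ranges overlapped. No control line recurred between experiments, so line and experiment cannot be told apart in this spread. Changes in the main fit were taken only against controls of the same experiment, as in the study's Methods. The exception was *hsp90.2-3*, which has no named experiment and was set against Col-0. The orders of line means cross experiments and are a description.

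A contrast that played no part in choosing the genes was that of Control-3 with Control-1, the control lines of the second experiment. Control-3 was higher by 0.45 (SE 0.38) for *BHLH101*, 0.34 (SE 0.27) for AT1G47400 and 0.21 (SE 0.22) for *bHLH39* on the log2 scale, with limma adjusted p of 0.913, 0.894 and 0.943 over 16703 probe sets. None of the 3 passed, where 0.0419% of all probe sets did.

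The genes also varied between samples of the same line. The pooled SD within lines was 0.49 for *BHLH101*, 0.35 for AT1G47400 and 0.29 for *bHLH39* on the log2 scale, against a median of 0.20 over all probe sets tested. For *BHLH101*, 94.7% of probe sets had a smaller SD. *IRT1*, below the filter throughout, had an SD of 0.53.

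Of the 3 genes that passed the filter, *bHLH39* was below control in 9 of 9 lines, and *BHLH101* and AT1G47400 in 8 of 9. Lines share controls, and the share of all probe sets with such signs was not computed. With 1 sample left out, signs turned for *bHLH39* and AT1G47400 in RNAi-A3 and HSP90.1-TDNA. Those of *BHLH101* turned in RNAi-A2 and HSP90.2-TDNA. In *hsp90.2-3* the limma fit called 3 of 3 lower, where it called 3.54% of all probe sets lower. It called 1 of 3 lower, AT1G47400, in RNAi-A2 (0.251% of all), in RNAi-B1 (0.156%) and in HSP90.3-TDNA (0.0419%). It called none in RNAi-C1 (3.45%), RNAi-A1 (0.00599%), RNAi-A3 (0%), HSP90.2-TDNA (0.00599%) or HSP90.1-TDNA (0.018%). The AT1G47400 calls in RNAi-A2 and RNAi-B1 were both lost with Control-1 alone or all 4 control lines as the control. With 1 sample left out the call held in 4 of 8 fits in RNAi-A2, where either RNAi-A2 sample, Control-1 replicate 2 or Control-3 replicate 2 ended it. In RNAi-B1 it held in 5 of 9 and was lost without any of the RNAi-B1 samples or without Control-1 replicate 2. In HSP90.3-TDNA it held in 6 of 6, but not with only the samples compared, a setting that also ended the *BHLH101* call in *hsp90.2-3*. The *bHLH39* call in *hsp90.2-3* held in 5 of 6 fits and was lost without Col-0 replicate 2. These contrasts chose the genes, so the counts describe the selection and nothing is read from them.

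Counted by samples that did not overlap, 3 of 3 genes lay wholly below control in RNAi-A1 (as did 15.6% of probe sets) and in *hsp90.2-3* (14.1%). The count was 2 of 3 in RNAi-B1 (3.71%), RNAi-C1 (6.76%) and HSP90.3-TDNA (6.66%). It was 1 of 3 in RNAi-A3 (18.7%), RNAi-A2 (7.42%) and HSP90.2-TDNA (6.04%), and 0 in HSP90.1-TDNA (5.45%).

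Averaged over the 5 RNAi lines, the log2 change was -0.83 (SE 0.22) for *BHLH101*, -0.75 (SE 0.16) for AT1G47400 and -0.46 (SE 0.13) for *bHLH39*. Over the 3 TDNA lines it was -0.30 (SE 0.31), -0.81 (SE 0.22) and -0.33 (SE 0.18) in the same order, and over all 9 lines -0.79 (SE 0.18), -0.94 (SE 0.13) and -0.47 (SE 0.11). The fit called 1 of 3 lower for RNAi lines (0.168% of all probe sets), 0 of 3 for TDNA lines (0.00599%) and 3 of 3 for all 9 lines (0.443%). With 1 sample left out, the call over the RNAi lines, AT1G47400, held in 18 of 20 fits and was lost without either Control-2 sample. Over all 9 lines AT1G47400 held in 35 of 35. *BHLH101* held in 32 of 35, lost without Control-2 replicate 2, Col-0 replicate 2 or Col-0 replicate 3, and *bHLH39* in 32 of 35, lost without Control-2 replicate 1, Col-0 replicate 1 or Col-0 replicate 2. Control-1 alone as the control ended each of these calls but that of AT1G47400 over all 9 lines. By size of fall over all 9 lines, AT1G47400 ranked 3, *BHLH101* 7 and *bHLH39* 44 among 16703 probe sets, while the median of all probe sets was 0.00. These means average the contrasts that chose the genes, so the ranks, calls and their stability describe the selection as well.

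The deviations of samples from the mean of their own line did not enter the selection, and they show whether the genes rise and fall together from pool to pool. Over 35 samples AT1G47400 and *bHLH39* had a Pearson r of 0.49 (two-sided permutation p = 0.0373, adjusted p = 0.224 over 6 pairs) and a Spearman rho of 0.46 (permutation p = 0.0377, adjusted p = 0.226). Without the samples farthest from the median, both of RNAi-A3, r was 0.37. By experiment in order (the last with *hsp90.2-3*), r was 0.80, 0.33 and 0.41. With 2 samples a line, deviations in the first experiment are equal and opposite. Each r of that experiment therefore rests on a single deviation per line. The correlation over 35 samples did not pass the correction over the 6 pairs.

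*BHLH101* and AT1G47400 had an r of 0.41 (permutation p = 0.154, adjusted p = 0.463), a rho of 0.30 (permutation p = 0.227, adjusted p = 0.678) and an r of 0.46 without HSP90.3-TDNA replicate 3 and Col-0 replicate 1. By experiment r was 0.79 (again from a single deviation per line), -0.12 and 0.43, so the second experiment did not share its sign. *BHLH101* and *bHLH39* had an r of 0.18 (permutation p = 0.301, adjusted p = 0.602) and a rho of 0.20 (permutation p = 0.339, adjusted p = 0.678), with r of 0.32, 0.42 and 0.13 by experiment. The 3 pairs with *IRT1* had r between -0.05 and 0.13, with adjusted permutation p from 0.737 to 0.864.

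**Figure D3:**
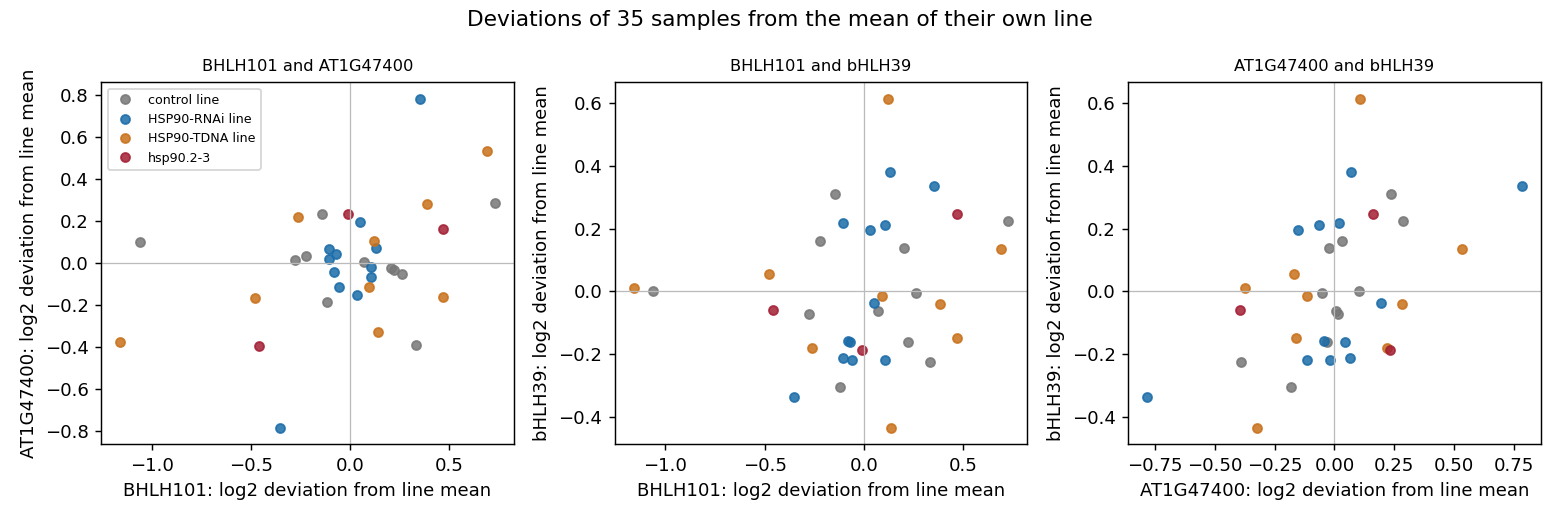
Log2 deviation of each of 35 samples from the mean of its own line, for 3 pairs of genes, coloured by kind of line. AT1G47400 and *bHLH39* lean to a common direction (r = 0.49), in which the RNAi-A3 samples lie at the far ends of the AT1G47400 axis.

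The wider iron system was followed through 7 lists with 77 genes, of which 73 were not among the 4. A probe set of a single gene was found for 20 of these and 17 passed the filter: 10 regulators, 4 genes of the coumarin list and 3 of the shoot marker list. Apart from the 4 genes, no gene of the uptake, transport, storage or peptide lists was tested, and the other subgroup Ib factors, *bHLH38* and *bHLH100*, were not measured by a named probe set. In the RefSeq gene table (TAIR10.1) *bHLH38* is the neighbour of *bHLH39*, and *IRT2* that of *IRT1*.

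The regulators acting above the subgroup Ib genes showed small mean changes. *bHLH34*, *bHLH104*, *ILR3* and *bHLH115* encode subgroup IVc factors that activate the subgroup Ib genes, and over all 9 lines their log2 changes were 0.01 (SE 0.11), 0.01 (SE 0.05), -0.05 (SE 0.08) and -0.07 (SE 0.09). *PYE*, a repressor of the response, changed by -0.06 (SE 0.06). None of these 5 was called in any line. The regulator with the largest mean change was *NAI1*, at 0.31 (SE 0.17, limma adjusted p = 0.421), a bHLH factor known for endoplasmic reticulum bodies.

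*bHLH121*, a partner of the subgroup IVc factors, gave 534, 668 and 644 in Col-0 and 921, 628 and 1073.5 in *hsp90.2-3*. The ranges overlapped, since replicate 2 of *hsp90.2-3* was lower than 2 of the Col-0 samples. It was called higher by a narrow margin, 0.47 (SE 0.15, limma adjusted p = 0.04996), and that call was lost in 8 of the alternative settings and in 28 of 35 fits with 1 sample left out.

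Of 8 genes on the shoot marker list 3 were tested, and 2 of them fell in *hsp90.2-3*. AT5G05250 gave 73.1, 97.3 and 66.2 there, against 214, 251 and 171 in Col-0, with no overlap. Its log2 change was -1.26 (SE 0.24, limma adjusted p = 0.00167), a call that was lost by the methods' t-test. In HSP90.2-TDNA, in which the same HSP90 gene is disrupted by an insertion, it gave 134, 206 and 183, and the difference of the changes, *hsp90.2-3* minus HSP90.2-TDNA, was -1.002 (SE 0.24, limma adjusted p = 0.0224). That difference lost its call in 4 of 9 fits with 1 sample left out, and with the outlying array kept. Mean AT5G05250 signal in control lines ran from 212 in Col-0 to 1262 in Control-3, and *hsp90.2-3* has no named experiment. Mutant and experiment therefore cannot be told apart here.

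AT3G56360 gave 789.4, 809.6 and 540.1 in *hsp90.2-3* against 1080.0, 1948 and 1474 in Col-0, again without overlap. Its log2 change was -1.04 (SE 0.18, limma adjusted p = 0.000712), a call that was lost when only these 2 lines were fitted and by the methods' t-test. HSP90.2-TDNA gave 1393, 2137 and 1345, and the difference of the changes was -1.16 (SE 0.18, limma adjusted p = 0.00069). Control line means of AT3G56360 ran from 1500 in Col-0 to 5580 in Control-3, so the same limit holds. The other marker tested, AT3G07720, had a log2 change of -0.05 (SE 0.14, limma adjusted p = 0.91) in *hsp90.2-3* and was called in no line. With *bHLH121*, these were the 3 of 17 iron genes called in *hsp90.2-3*, 2 lower and 1 higher, where 8.77% of all probe sets were called in either direction. The median log2 change of the 17 was 0.02, against -0.03 over all probe sets.

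The coumarin list holds genes that make or release compounds that mobilise iron in soil. Of its 4 tested genes 1 was called in RNAi-B1, higher, and another in RNAi-A2, lower. AT3G13610, listed with the synonym F6'H1 for the feruloyl-CoA hydroxylase of scopoletin synthesis, gave 169, 219 and 309 in RNAi-B1. Control-1 gave 82.5, 27.1 and 38.5, and Control-3 gave 10.7, 8.77 and 5.34. Each RNAi-B1 sample exceeded each control sample. This gene passed the filter through RNAi-B1 alone, at a mean of 232, while the other 12 line means were 5.61 to 55.7. It had to be high there to be tested, so its call, the single one among the 17 genes in that line (1.02% of all probe sets in either direction), is no support for a change, and no fold is given. Control-3 lay below Control-1 by a log2 difference of -1.34 (SE 0.38), which was not called (limma adjusted p = 0.325). The means of both control lines were under the filter signal. RNAi-C1 gave 17.7, 69.3 and 11.1 and RNAi-A2 19.1 and 92.3, values that overlapped the controls.

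AT1G28680 gave 223 and 259.9 in RNAi-A2 against 375, 342 and 402 in Control-1 and 325, 303 and 352 in Control-3. Both samples lay below all controls, with a log2 change of -0.51 (SE 0.11, limma adjusted p = 0.0265), the single call in that line (0.928% of all probe sets). With Control-3 alone as the control, the change was -0.42 and was not called. It was lost as well with the outlying array of RNAi-A3 kept, with only the samples compared, with the replicate number as a block, by the methods' t-test, and without RNAi-A2 replicate 1, RNAi-A2 replicate 2 or Control-1 replicate 3.

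Of the 17 genes none was called in RNAi-C1 (8.25% of all probe sets in either direction), RNAi-A3 (0.012%), RNAi-A1 (0.00599%), HSP90.3-TDNA (0.0898%), HSP90.1-TDNA (0.0239%) or HSP90.2-TDNA (0.00599%). The same held for the RNAi lines combined (0.694%), the TDNA lines combined (0.00599%) and all 9 lines (2%). At an unadjusted limma p under 0.05, between 0 and 2 genes were lower and between 0 and 2 higher in these 9 comparisons. AT5G05250 over all 9 lines, at -0.33 (SE 0.12, limma adjusted p = 0.159), had the largest mean fall of the 17.

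**Figure D4:**
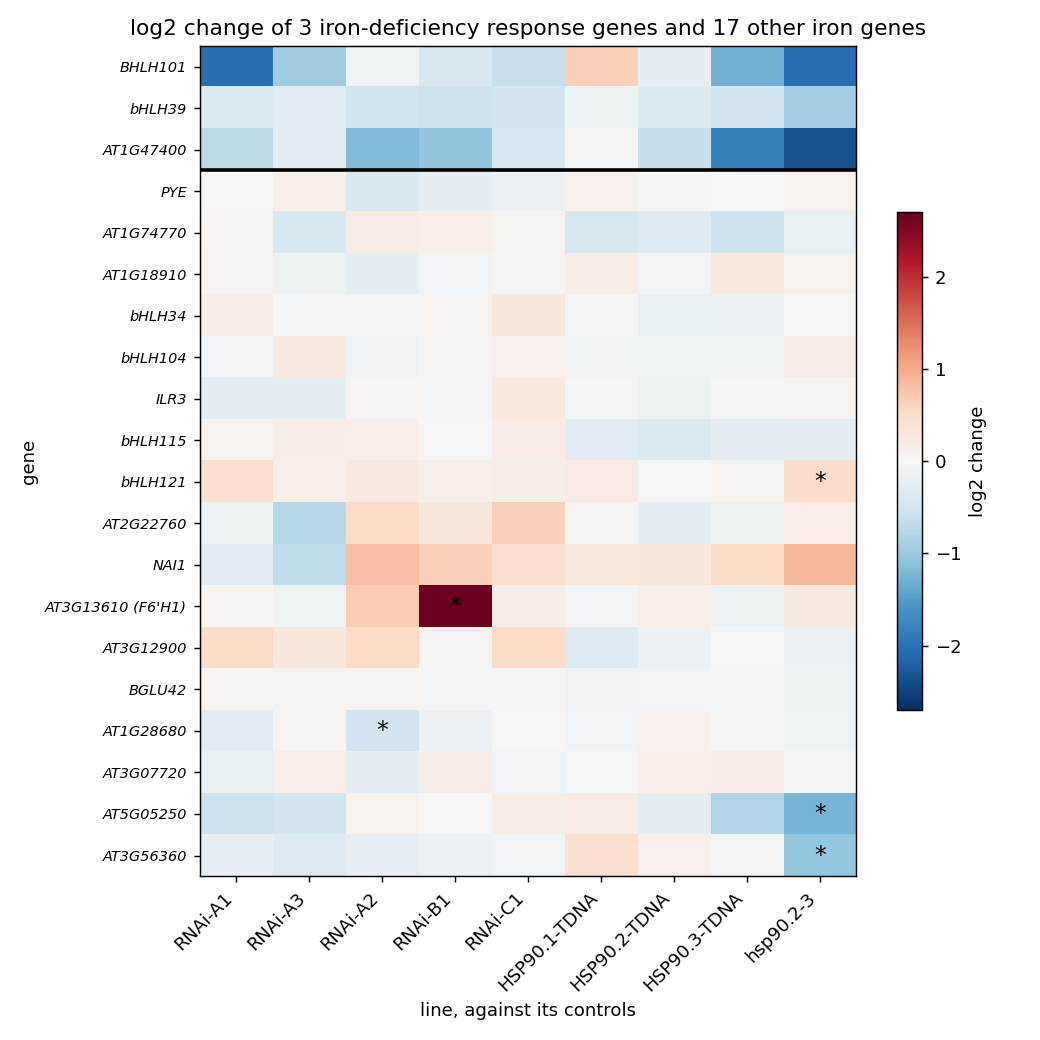
Log2 change of *BHLH101*, *bHLH39* and AT1G47400 (above the black line) and of 17 other iron genes in each HSP90-reduced line against its controls. Blue is lower, red is higher, and asterisks mark limma adjusted p under 0.05 for the 17 genes alone. AT5G05250 (-1.26) and AT3G56360 (-1.04) stand out in *hsp90.2-3*, and AT3G13610 in RNAi-B1, the one line through which it passed the filter.

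The genes whose profile was most like each of the 3 were sought among 9284 named genes, by Pearson r over 35 samples after subtraction of the control mean of each experiment. Samples share lines and controls in these profiles, which also hold the line changes that chose the 3 genes. The values of r are therefore a description. Between the 3 genes r was 0.77 for AT1G47400 and *bHLH39*, 0.71 for AT1G47400 and *BHLH101*, and 0.56 for *BHLH101* and *bHLH39*.

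For *BHLH101* the closest were AT1G26920 (r = 0.77), AT5G05250 (0.72), AT1G74640 (0.70), AT3G56360 (0.69) and AT5G02180 (0.68). Both shoot markers that fell in *hsp90.2-3* were among these 5, but *BHLH101* itself fell there (-2.05), so this is no separate support. AT1G47400 was closest to *GSTU27* (0.78), a glutathione S-transferase, then AT5G45670 (0.78), *PRK* (0.77), the phosphoribulokinase of the Calvin cycle, AT5G05250 (0.77) and AT1G60000 (0.76). For *bHLH39* the order was AT5G44680 (0.68), *AOP1* (0.68), *GSTU27* (0.67), AT1G74730 (0.66) and AT5G15910 (0.65). AT5G05250 and *GSTU27* each appeared for 2 of the genes. In *hsp90.2-3* the log2 changes of these genes ran from -0.19 (AT5G15910) to -1.26 (AT5G05250), with -0.46 for *GSTU27* and -0.54 for *PRK*, against -2.34 for AT1G47400.

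Marker genes of roots and leaves were read beside these results. Of 12 root markers 3 had a named probe set, and the summed root signal was 89.2 to 313 (median 190.4) in HSP90-reduced lines and 71.8 to 281 (median 183) in control lines. Of these, *PRX72* was dim, at 1.22 to 56.5. Of 10 leaf markers 2 had a probe set, *RCA* (Rubisco activase) and *HPR* (a photorespiratory reductase), whose sum was 24539 to 36676 in HSP90-reduced lines and 27000.0 to 36844 in control lines. In *hsp90.2-3* the leaf sum was 24539 to 25226, wholly below the 28368 to 34510 of Col-0, and the root sum was 122 to 202 against 183 to 237. No marker was called in *hsp90.2-3*, where *RCA* changed by -0.29 (SE 0.10, limma adjusted p = 0.0647) and *HPR* by -0.29 (SE 0.11, limma adjusted p = 0.101). The part of these markers in the falls of the iron genes was not tested.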

How the data were processed

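The intensity values were deposited by the authors as MAS5 signals. The Methods name PLIER, but each array had a trimmed mean of 499.7 to 499.9, as MAS5 scaling leaves it. No detection calls were used. Changes were computed from log2(signal + 16), after averaging of technical replicates. Without 64 control probe sets, testing was limited to 16703 whose mean in at least 1 line passed the 35th percentile (signal 90.27). A mean per line was fitted in limma 3.58.1 (R 4.3.3), with 22 residual degrees of freedom and Benjamini-Hochberg adjustment over those 16703, called under 0.05. Combined sets are means of single-line changes. Controls were shared: Control-2 by RNAi-A1 and RNAi-A3, Control-3 with Control-1 by the other RNAi lines, and Col-0 by the TDNA lines and *hsp90.2-3*.

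The 4 genes and the gene lists were chosen with earlier results of these data known. Other iron genes are named if called in a line or combined set, or if they had the largest mean change of their list, and 5 genes of most similar profile are named per gene. Remaining names were added after their values were seen. A probe set was named where the probe table gives a single gene (13513, against 503 with several and 8730 with none). Within-line correlations used 100000 permutations of samples within lines. Scripts were tested on simulated data. Alternatives were other offsets, filters, normalization, controls and tests, the replicate block, and each sample left out. Sequences and promoter motifs were not analysed here. Figures were drawn with matplotlib 3.10.9.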

Additional observations from a re-analysis of the deposited data

Results flagged for a closer look

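AT5G05250 and AT3G56360 differed between the mutants of one HSP90 gene: the change in *hsp90.2-3* minus that in HSP90.2-TDNA was -1.002 and -1.16 on the log2 scale, with limma adjusted p of 0.0224 and 0.00069. The Col-0 mean cancels in this difference. As *hsp90.2-3* has no named experiment, mutant and experiment cannot be told apart.

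*BHLH101* moved in opposite directions in HSP90.1-TDNA (log2 change 0.65, with its 3 samples above the Col-0 mean) and HSP90.3-TDNA (-1.30, with its 3 samples below it). Both lines overlapped Col-0 in range. Without Col-0 replicate 1 the changes were 0.12 and -1.83, and without HSP90.3-TDNA replicate 3 the change in that line was -0.72. The difference between these lines was not tested.

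On the array of RNAi-A3 that was left out, AT1G47400 had a signal of 879 and *IRT1* of 65.5, both above each Control-2 array. The correlation of that array with the median profile was 0.4995.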

How the results depend on the processing

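Samples per line are few, and dim signals lie near background, which limits these values. Of 357 log2 changes of the 3 genes recomputed under settings that kept all samples, 336 moved by less than the SD within lines. The sign turned in 4, 9 of 102 calls were lost and 17 were gained, 14 of these with all 4 control lines. Filters and the fit of only the samples compared leave an estimate unchanged by design. So does the outlying array in single lines other than RNAi-A3. The share that moved by less than the SD is therefore no measure of robustness. *BHLH101* in RNAi-A2 turned to 0.12 with Control-1 alone and 0.23 with all 4 control lines. With an offset of 4 *BHLH101* changed by -2.58 in RNAi-A1 and -2.55 in *hsp90.2-3*, and with 64 by -1.18 and -1.24, with *bHLH39* at -0.60 in *hsp90.2-3*. With the outlying array kept, AT1G47400 in RNAi-A3 was 0.22 and 0 iron genes were called in RNAi-A2. With all 4 control lines as the control, AT1G47400 changed by 0.081 in RNAi-C1, -0.51 in RNAi-B1, -0.63 in RNAi-A2, -1.40 in RNAi-A3 and -1.81 in RNAi-A1.

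With all 4 control lines, *bHLH39* changed by -0.62 in RNAi-A3, -0.73 in RNAi-A1, -0.18 in RNAi-B1, -0.13 in RNAi-A2, -0.11 in RNAi-C1, -0.95 in HSP90.3-TDNA, -0.83 in HSP90.2-TDNA, -0.60 in HSP90.1-TDNA, -0.79 over these 3 lines and -1.41 in *hsp90.2-3*. Iron genes called were then 1 in RNAi-A3, 3 each in RNAi-C1, RNAi-A1 and RNAi-B1, 2 in RNAi-A2, 4 in each TDNA line and over them, 2 over the RNAi lines and 3 over all 9 lines. In RNAi-A2, 0 were called with the replicate number as a block, with Control-3 alone or with only the samples compared. With Control-3 alone 1 was called over the RNAi lines. In *hsp90.2-3*, 1 was called with only the samples compared and 0 by the methods' t-test.

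Replicate numbers were not taken to pair the samples, since same-numbered deviations did not all correlate above 0.1: r was -0.158 to 0.0448, -0.0798 to 0.208 and -0.00224 to 0.355 by experiment. Their medians were -0.0886, 0.0545 and 0.131, against 0.0886, -0.0330 and -0.0659 for different numbers, and 0 of 6, 11 of 14 and 12 of 12 samples correlated best with their own number. In the second and last experiments same-numbered samples thus leaned together, which the main fit and the within-line permutations did not model. The block turned the within-line r of *BHLH101* and *IRT1* to 0.0533, and of AT1G47400 and *IRT1* to 0.00224. Quantile normalization turned that of *bHLH39* and *IRT1* to -0.0322.

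As each sample was left out, AT1G47400 in RNAi-A3 ranged from -1.08 to 0.49 and *bHLH39* from -0.61 to 0.0597, and iron genes called from 0 to 1 in RNAi-A2 and over all 9 lines. *BHLH101* ranged from 0.12 to 1.02 in HSP90.1-TDNA, -0.78 to 0.12 in HSP90.2-TDNA, -1.83 to -0.72 in HSP90.3-TDNA, -2.58 to -1.69 in *hsp90.2-3* and -0.83 to 0.0653 over the TDNA lines. *bHLH39* in HSP90.1-TDNA ranged from -0.45 to 0.0789. The r of *BHLH101* and *IRT1* ranged from -0.18 to 0.23, and that of AT1G47400 and *IRT1* from -0.0869 to 0.0601. The call of AT3G56360 in *hsp90.2-3* was lost with only the samples compared and by the methods' t-test, and that of AT5G05250 by the methods' t-test. The cause of these shifts was not tested.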
